A study of Danio rerio with 2 samples.

Results

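Genes of mitochondrial ribosomal proteins were taken as all those of the deposited zebrafish table whose symbol begins with *mrpl* or *mrps* followed by a number. The table lists 33396 genes, of which 26433 could be paired with a symbol. The rule found 73 mitoribosomal genes, 46 *mrpl* and 27 *mrps* genes. No symbol was shared by different identifiers and no gene was at 0 in either library. All 73 had at least 1 FPKM in either library, the filter below which a gene was not compared.

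The mitochondrial ribosome, or mitoribosome, translates the few mRNAs that the mitochondrial genome encodes. These mRNAs carry core subunits of the respiratory chain and of ATP synthase, so the mitoribosome serves oxidative phosphorylation, on which beating heart muscle relies. Its rRNAs come from mitochondrial DNA, whereas all of its proteins are encoded in the nucleus, made in the cytosol and imported. Proteins of the large subunit are named *mrpl* and those of the small subunit *mrps*. Some have a counterpart in the bacterial ribosome and others are specific to mitochondria. The roles given below are known from bacterial or mammalian ribosomes, not from zebrafish.

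RNA-seq of zebrafish hearts at 72 hpf (hours post-fertilization) gave 1 control library and 1 library labelled mutant, each from pooled dissected hearts. The control is labelled wild type and the other library homozygous for *smyd4* L544Efs*1, a frameshift allele of a gene of the SET and MYND domain family. Both are labelled as strain Tu. The study's methods describe the mutants as maternal and zygotic, and the controls as Tg(cmcl2:GFP), a line in which a cardiomyocyte promoter drives GFP. The fluorescence guided the dissection in both groups, so other tissue next to the heart could be carried along. In bulk tissue, fewer cells of a type and less RNA per cell cannot be told apart.

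As each group had a single library, the replicate error is unknown and no p-value is given. Values are FPKM, the reads of a gene relative to its length and to the reads of its whole library. The values yielded totals of 18840114 (control) and 17960132 reads (library labelled mutant). A difference is log2(FPKM + 1) of the library labelled mutant less the same quantity of control, and a gene was called higher or lower when it exceeded 1 in size. This scale understates the difference of genes with low values. *smyd4* itself was at 2.42 FPKM in both libraries (111 and 106 recovered reads). The study reports, from qRT-PCR and in situ hybridization of embryos, that *smyd4* mRNA was lost in the mutants. These heart libraries do not show that loss, so the genotype of the second library rests on its label. Over the 17800 genes compared, the median difference was 0.49. It was 0.04 after scaling the reads by a trimmed mean of log ratios (TMM), and medians are therefore also given relative to that of all genes.

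Markers of the heart and of other tissues differed between the libraries. *myl7*, the cardiomyocyte light chain gene, was at 642 and 2977 FPKM, whereas *actc1a*, the most abundant marker of that list in control, was at 4275 and 1685 FPKM. Of 8 cardiomyocyte markers compared 4 were higher (50%) and 1 lower (12.5%), against 33.3% and 11.6% of all genes compared. *myh6* is counted there under more than 1 identifier, and not every listed name had a match. Sums over the list were 6476 and 7159 FPKM. All 5 liver and yolk markers compared were lower, with sums of 31962 and 7077 FPKM, and the sixth, at 0 in control, was under 1 FPKM in both. Lens markers summed to 0.131 and 41.8 FPKM, with 3 of 4 at 0 in control. Sums were 3055 and 2279 FPKM for 3 erythrocyte genes, 517 and 647 FPKM for 4 skeletal muscle genes, 13634 and 19428 FPKM for 3 epidermal genes and 125 and 60.2 FPKM for 4 neural genes. The part of these tissues in the levels of the mitoribosomal genes was not tested.

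The mitoribosomal genes did not move together. Of 73 genes, 19 were higher in the library labelled mutant, 19 were lower and 35 lay within the threshold. The shares were 26.0% in each direction, against 33.3% higher and 11.6% lower among all genes compared. Their median difference was -0.33, which is 0.825 below that of all genes, and 47 of the 73 lay below the all-gene median. With TMM scaling 14 were higher and 30 lower, when 21.3% of all genes were higher and 19.3% lower. That scaling applies a constant that lowers every difference here. The 19 lower genes therefore could not lose their call, and the 14 higher genes could only come from the 19 called before. Summed over the 73 genes, control held 5103 FPKM and the library labelled mutant 3656 FPKM.

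**Figure D1:**
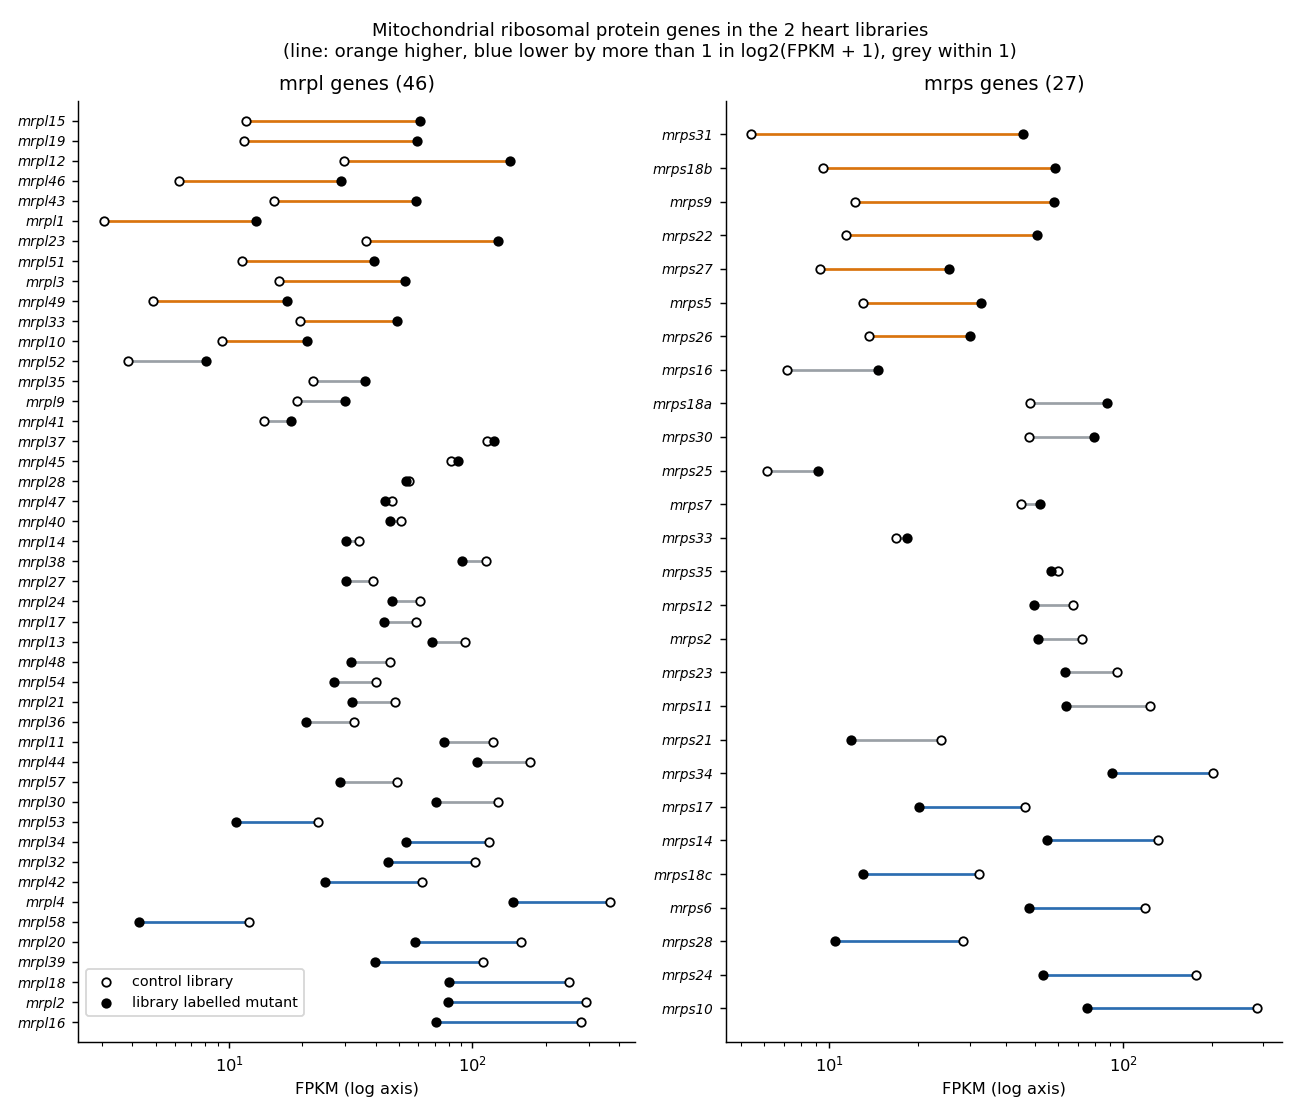
Level of each mitoribosomal gene in FPKM (log axis) in the control library (open circles) and the library labelled mutant (filled circles), with *mrpl* genes on the left and *mrps* genes on the right, sorted by their difference. The line is orange for the 19 higher genes, blue for the 19 lower genes and grey for the 35 within the threshold; each point is 1 library.

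The largest increase was that of *mrps31* (ENSDARG00000057855), a small subunit protein found only in mitochondria. Control held 5.41 FPKM of it and the library labelled mutant 45.5 FPKM, a ratio of 8.42. Pairs of values below follow this order. Recovered reads were 147 and 1180, and the exact Clopper-Pearson 95% interval of the ratio was 7.09 to 10.1, which covers counting error only. Next came *mrps18b* (ENSDARG00000007065), 1 of the 3 vertebrate relatives of bacterial S18 and counted here as specific to mitochondria, at 9.49 and 58.8 FPKM. Both genes were among the 10 lowest of the 73 in control, at ranks 70 and 64, and stood at ranks 40 and 22 in the other library.

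The next 3 were large subunit genes with a bacterial counterpart. *mrpl15* encodes a protein that in bacteria joins during assembly of the large subunit, and it was at 11.7 and 60.9 FPKM. *mrpl19*, whose bacterial relative lies at the interface of the subunits, was at 11.5 and 59.3 FPKM. *mrpl12* (ENSDARG00000038768) encodes the stalk protein that recruits translation factors, and it was at 29.6 and 143 FPKM, with an interval of the ratio from 4.43 to 5.25. It stood at rank 45 of 73 in control and at rank 2 in the library labelled mutant.

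The other 3 of the 8 largest increases came from both classes. *mrps9*, whose bacterial counterpart reaches the tRNA in the P site with its tail, was at 12.2 and 58.3 FPKM. *mrps22*, specific to mitochondria, was at 11.4 and 51.0 FPKM. *mrpl46*, also specific to mitochondria, was at 6.21 and 28.7 FPKM. These 8 genes had differences from 2.04 to 2.86. In the values as deposited they were the only mitoribosomal genes past 2 in either direction. With TMM scaling only *mrps31* (2.39) and *mrps18b* (2.02) stayed above 2, and some lower genes, named below, then passed -2. The share of all genes past 2 was not counted. As the all-gene median was 0.49 in the values as deposited, a cut at 2 and -2 is uneven there. Each of the 8 stayed past 1 under every scaling, filter, pseudocount and trend removal that was run. This was largely fixed in advance. No filter alters a gene's own value, and TMM scaling shifts a difference by at most 0.515, too little to bring a gene from above 2 to below 1.

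The remaining 11 higher genes had smaller differences. *mrpl43*, *mrpl1*, *mrpl23*, *mrpl51*, *mrpl3* and *mrpl49* lay between 1.64 and 1.86 and remained above 1 with TMM scaling. Among them, *mrpl23* encodes a protein at the exit of the peptide tunnel and was at 36.5 and 127 FPKM, at rank 3 of the library labelled mutant. *mrpl1*, the counterpart of the bacterial L1 stalk protein that moves with the leaving tRNA, had the lowest level of all in control, with 3.06 against 12.9 FPKM. Because only 30 and 121 reads were recovered for it, the interval of its ratio was wide, from 2.82 to 6.54. It is too wide if these reads are a fraction of the true ones. The other 5, *mrps27*, *mrpl33*, *mrps5*, *mrpl10* and *mrps26*, had differences of 1.08 to 1.36 and were no longer called with TMM scaling.

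Among the lower genes, the largest difference was that of *mrpl16* (ENSDARG00000075325), whose bacterial counterpart lies near the tRNA in the A site. Its levels were 279.6 and 70.7 FPKM, a ratio of 0.253 with an interval of 0.240 to 0.266. *mrps10* (ENSDARG00000045913), a protein of the head of the small subunit, was at 285.9 and 75.6 FPKM. *mrpl2* (ENSDARG00000062568), which binds the rRNA near the catalytic center, was at 292.1 and 79.6 FPKM. These 3 were among the 5 highest mitoribosomal genes of control, and their ratios were 0.253 to 0.273.

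The next lower genes were again mostly ones that bacteria share. *mrps24*, the counterpart of bacterial S3 at the mRNA entry, was at 177 and 53.5 FPKM. *mrpl18*, a protein of the central protuberance, was at 250.2 and 79.8 FPKM. *mrpl39*, specific to mitochondria and related to a tRNA synthetase, was at 110.1 and 39.8 FPKM. *mrpl20*, an early assembly protein in bacteria, was at 158 and 57.9 FPKM, and *mrps28*, the counterpart of bacterial S1, was at 28.4 and 10.5 FPKM. The differences of these 5 genes ranged from -1.36 to -1.71.

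The remaining 11 lower genes were *mrpl58*, *mrpl4*, *mrps6*, *mrpl42*, *mrps18c*, *mrps14*, *mrps17*, *mrpl32*, *mrps34*, *mrpl34* and *mrpl53*, with differences from -1.05 to -1.32. *mrpl4*, which lines the peptide tunnel, was the most abundant mitoribosomal gene in both libraries, at 367 and 147 FPKM. *mrpl58*, which in mammals frees stalled ribosomes by peptide release, was the least abundant in the library labelled mutant, at 12.1 and 4.26 FPKM. No lower gene passed a difference of -2 in the values as deposited. With TMM scaling *mrpl16* (-2.48), *mrps10* (-2.42), *mrpl2* (-2.37), *mrps24* (-2.22) and *mrpl18* (-2.15) did. Just inside the threshold lay *mrpl53* (-1.05) and *mrps26* (1.08), and just outside it *mrps21* (-0.96) and *mrps16* (0.93).

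The 35 genes within the threshold included several that hardly differed. In 9 of the 73 genes the ratio of the libraries lay within 1.2-fold in either direction. *mrpl28* was at 54.8 and 53.5 FPKM. *mrpl45*, which tethers the mammalian mitoribosome to the inner membrane, was at 81.7 and 87.3 FPKM. *mrpl37* was at 115 and 123 FPKM and *mrps35* at 60.2 and 56.7 FPKM. Because the all-gene median was 0.49, such genes lay below the typical gene of this comparison.

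**Figure D2:**
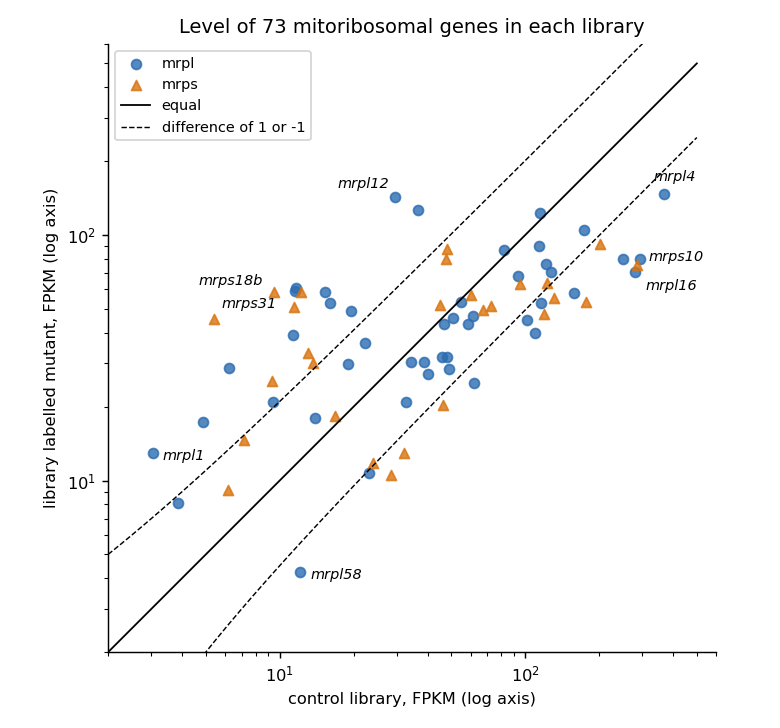
FPKM in the control library (horizontal log axis) against FPKM in the library labelled mutant (vertical log axis) for *mrpl* (circles) and *mrps* (triangles) genes; the solid line marks equal levels and the dashed lines a difference of 1 or -1. The 10 genes lowest in control lie above the solid line and the 10 highest below it, a pattern into which the control value enters on both sides. The vertical spread (4.26 to 147 FPKM) is narrower than the horizontal spread (3.06 to 367 FPKM).

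The levels of these genes were closer to each other in the library labelled mutant than in control. In control they ranged from 3.06 to 367 FPKM, a 120.1-fold range, with quartiles at 13.9 and 102.0 FPKM. In the library labelled mutant they ranged from 4.26 to 147 FPKM, a 34.5-fold range, with quartiles at 28.6 and 63.3 FPKM. The medians were 45.96 and 47.9 FPKM, and with TMM scaling 54.9 and 40.1 FPKM. The standard deviation of log2(FPKM + 1) over the 73 genes was 1.62 in control and 1.00 in the other library. With TMM scaling it was 1.63 and 1.00.

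Over all genes compared this standard deviation was 1.995 and 2.01. It was 1.86 and 1.73 over 81 cytosolic ribosomal protein genes, and 2.16 and 1.999 over 91 nuclear genes of oxidative phosphorylation. Over the 8388 genes within the range of mean level of the mitoribosomal genes it was 1.43 and 1.35. Some of the mitochondrial lists described below also had a narrower spread in the library labelled mutant. It was 1.29 and 0.985 over 21 assembly genes and 1.48 and 1.102 over 18 tRNA synthetase and amidotransferase genes. Over 6 mitoribosomal genes of other names it was 1.196 and 0.993. Others narrowed little or hardly at all, with 1.649 and 1.645 over the 16 genes of the translation factor list. The values were 1.56 and 1.42 over 17 genes of mitochondrial transcription, and 3.75 and 3.62 over 13 mitochondrially encoded genes. These are standard deviations among genes within a library and not an error of replicates, and their difference between groups of genes was not tested.

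**Figure D3:**
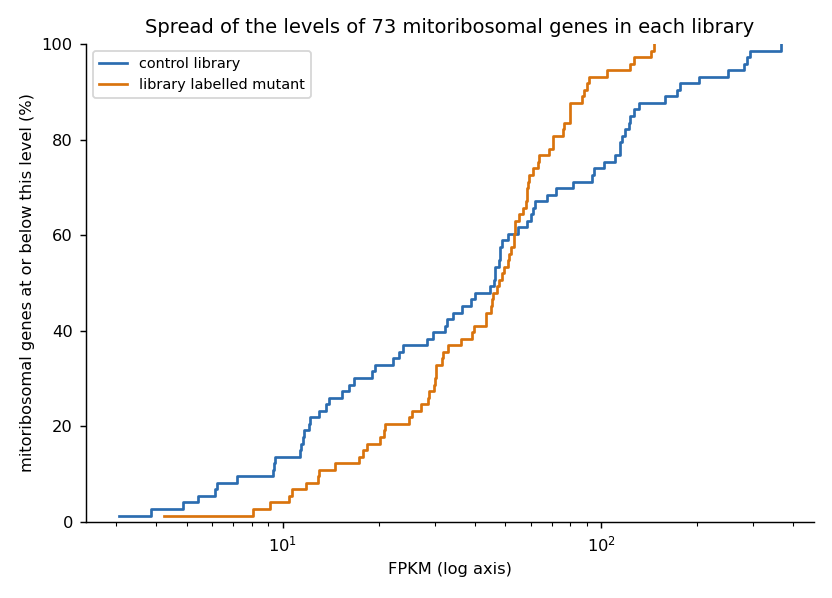
Share of the 73 mitoribosomal genes (vertical axis, %) at or below a given FPKM (horizontal log axis) in the control library (blue) and the library labelled mutant (orange). The orange curve is steeper: 65 genes lay between 10 and 100 FPKM, against 44 in control, and the curves cross near the medians of 45.96 and 47.9 FPKM.

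The lowest levels in control were those of *mrpl1*, *mrpl52* (3.85 and 8.07 FPKM), *mrpl49* (4.87 and 17.3 FPKM), *mrps31* and *mrps25* (6.14 and 9.14 FPKM). Above 100 FPKM stood 19 mitoribosomal genes of control and 5 of the library labelled mutant. Below 10 FPKM stood 10 and 3 genes. Of the 10 highest genes in control 9 were lower and 0 higher, and of the 10 lowest 7 were higher and 0 lower. The control value enters both sides of that statement and tilts it this way by itself. The same count over all genes ranked by control was not made. The genes were also divided by their mean level over the libraries, which is not a separate check. Both values enter that mean, so a narrower spread in the library labelled mutant tilts this division by itself. Of the 37 genes up to the median of this mean, 17 were higher and 5 lower, and of the 36 genes above it 2 were higher and 14 lower. The 2 higher ones were *mrpl12* and *mrpl23*. With TMM scaling the counts were 12 higher and 11 lower up to the median, and 2 higher and 19 lower above it.

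The same division of all genes did not look alike. Among 6540 genes in the lower part of this range, 41.8% were higher and 9.53% lower, and among 1848 genes in the upper part 38.3% were higher and 16.8% lower. With TMM scaling these shares were 27.3% and 16.6%, and 25.4% and 28.9%. Over the 73 mitoribosomal genes, Pearson's r between mean level and difference was -0.53 (Spearman's rho -0.54), and over all 17800 genes it was 0.02 (rho 0.09). The r of the 73 genes restates their narrower spread in the library labelled mutant and adds no separate result. Between the libraries the levels of the 73 genes correlated with r of 0.61, against 0.82 over all genes compared. Over all genes within their range of mean level r was 0.58, but a cut by mean level lowers r by itself. The value was 0.52 for the assembly genes and 0.58 for the tRNA synthetase list, whereas it was 0.94 for the cytosolic ribosomal protein genes and 0.92 for the oxidative phosphorylation genes. These lists were not cut by level, and the last 2 had wider spreads of level, so the values are not directly comparable. These correlations run across genes of the same 2 libraries, which are not independent replicates.

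**Figure D4:**
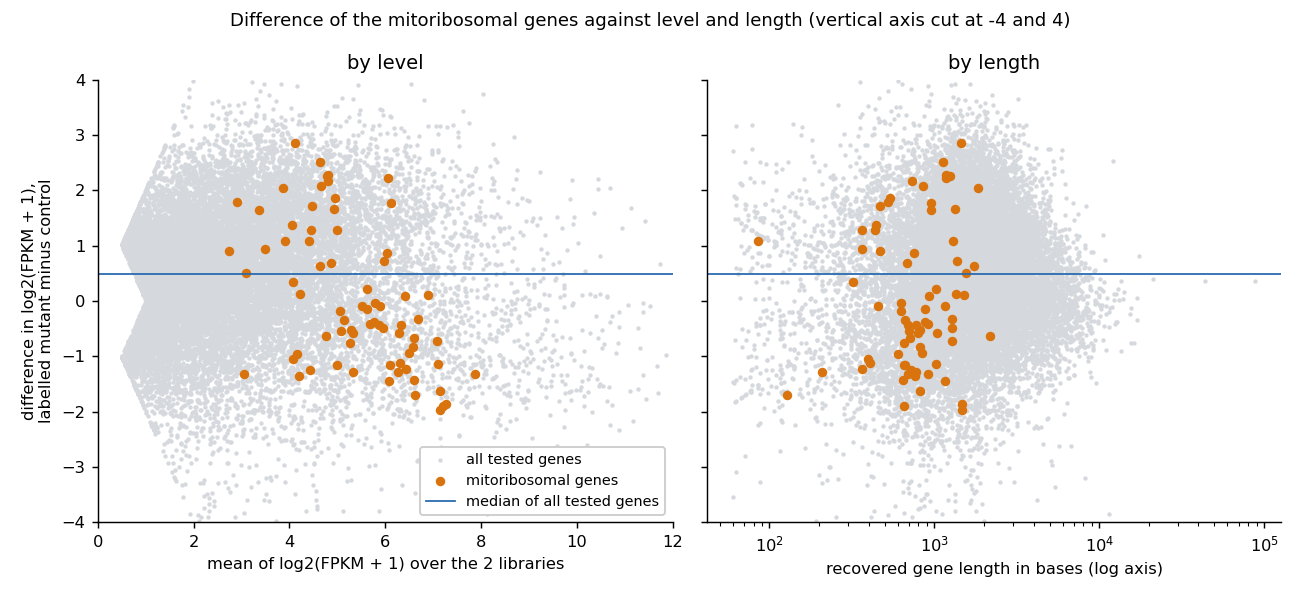
Difference in log2(FPKM + 1), library labelled mutant minus control, against the mean of log2(FPKM + 1) over both libraries (left) and against the recovered gene length in bases (right, log axis), for 73 mitoribosomal genes (orange) and all genes compared (grey); the blue line is the all-gene median of 0.49. The orange points fall from upper left to lower right in the left panel (r of -0.53) and show little slope with length (r of 0.11).

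Gene length was compared with the direction too. Lengths derived from the values had a median of 800 bases over the 73 genes and 1519 bases over all genes compared. For 3 mitoribosomal genes (*mrpl10*, *mrps24* and *mrpl42*) the derived length was under 250 bases, and it may there be a fraction of the true length, with reads too low by the same factor. Derived lengths of other genes can be fractions too, so the comparisons by length rest on uncertain lengths. Of the 37 genes up to the median length 8 were higher and 13 lower, and of the 36 longer genes 11 were higher and 6 lower. With TMM scaling these counts were 4 and 18, and 10 and 12. Among all genes up to 800 bases 28.2% were higher and 22.3% lower, and among the longer ones 34.4% and 9.20%. With TMM scaling these shares of all genes were 18.9% and 32.4%, and 21.8% and 16.4%. Pearson's r between log2 length and difference was 0.11 over the 73 genes. Removing the trend with length that all genes showed left 22 mitoribosomal genes higher and 11 lower. Over the 17800 genes compared it left 5989 higher and 1876 lower.

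Both subunits held genes of either direction. The 46 *mrpl* genes comprised 12 higher (26.1%) and 11 lower ones (23.9%), with a median of -0.34. The 27 *mrps* genes comprised 7 higher (25.9%) and 8 lower ones (29.6%), with a median of -0.09. Among all genes compared, 33.3% were higher and 11.6% lower. With TMM scaling 10 *mrpl* genes (21.7%) were higher and 19 (41.3%) lower, and 4 *mrps* genes (14.8%) were higher and 11 (40.7%) lower. The shares of all genes were then 21.3% and 19.3%. The name does not always give the place. *mrps18a* and *mrps30* are named for the small subunit, but their proteins lie in the large subunit of the mammalian mitoribosome. *mrps18a* was at 48.1 and 88.0 FPKM and *mrps30* at 47.7 and 79.5 FPKM, both within the threshold. Without them the median of the small subunit was -0.44.

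Genes were also divided by origin. The 43 genes with a bacterial counterpart comprised 10 higher and 14 lower ones (median -0.44). The 30 genes specific to mitochondria comprised 9 higher and 5 lower ones (median 0.11). With TMM scaling the genes with a bacterial counterpart comprised 7 higher and 20 lower ones (median -0.95). Those specific to mitochondria then comprised 7 higher and 10 lower ones (median -0.39). The contrast was wider in the small subunit. There, 2 of 15 genes with a bacterial counterpart were higher and 7 lower (median -0.96), whereas 5 of 10 mitochondria-specific genes were higher and 1 lower (median 0.79). With TMM scaling these 2 medians of the small subunit were -1.44 and 0.32. The counts were then 1 higher and 9 lower, and 3 higher and 2 lower. In the large subunit the medians of 28 and 20 genes were -0.36 and -0.03. Among all genes compared, 33.3% were higher and 11.6% lower. In the small subunit the 15 and 10 genes also differed in median control level (46.4 and 12.5 FPKM) and in median length (720 and 1143 bases). The difference between the classes was not tested, and neither was the part of level and length in it.

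Genes were next grouped by the place of their protein in the ribosome, as examples and not as complete lists. The factor-binding stalk is built from *mrpl10*, *mrpl11* and *mrpl12*. *mrpl12* and *mrpl10* were higher, the latter at 9.37 and 21.0 FPKM, and *mrpl11* was within the threshold at 122 and 76.4 FPKM, a difference of -0.67. The interval of the ratio of *mrpl10*, 1.18 to 4.45, is too wide if its recovered reads (15 and 32) are a fraction of the true reads. Near the catalytic center, *mrpl3* was at 16.1 and 53.1 FPKM, whereas *mrpl2* and *mrpl16* were lower. *mrps12*, the protein of the decoding center, was at 67.5 and 49.6 FPKM, a difference of -0.44. *mrps11* and *mrpl46*, the only 2 of these genes that are next to each other in the RefSeq gene order of the GRCz12tu assembly, had differences of -0.93 and 2.04.

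The head of the small subunit held both directions too. *mrps9* was higher and *mrps10* lower, *mrps14* was at 131 and 55.2 FPKM, and *mrps7* was at 44.8 and 52.1 FPKM. The 3 relatives of bacterial S18 diverged as well. *mrps18b* had a difference of 2.51 and *mrps18a* of 0.86, whereas *mrps18c*, the one that takes the place of bacterial S18, was at 32.2 and 12.99 FPKM (-1.25). As the counting rule is not known, reads of related genes could have been divided between them.

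Mitoribosomal proteins that carry other names lie outside the rule, and 6 such genes, including the membrane insertase *oxa1l* that binds the ribosome, were examined. *ptcd3*, an RNA-binding protein of the small subunit, was at 10.01 and 78.6 FPKM, a difference of 2.85. *dap3* was at 98.5 and 118 FPKM, *aurkaip1* at 48.9 and 86.6 FPKM, and *chchd1* at 18.3 and 23.0 FPKM. *gadd45gip1*, in the large subunit, was at 15.0 and 25.1 FPKM and *oxa1l* at 16.8 and 33.7 FPKM. All 6 were above 0 in difference, but with TMM scaling *dap3* (-0.26) and *chchd1* (-0.17) lay below it, and only *ptcd3* passed the threshold.

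Genes that assemble the mitoribosome or act with it were read beside the shares of all genes, 33.3% higher and 11.6% lower. The 21 assembly genes compared comprised 10 higher ones and 1 lower one, with a median of 0.92 (0.424 more than all genes). These are 47.6% higher and 4.76% lower. With TMM scaling 6 were higher and 6 lower (28.6% each, against 21.3% and 19.3% of all genes). *gtpbp10*, a GTPase of the large subunit's assembly, was at 2.25 and 13.9 FPKM, and *fastkd2*, which binds the large rRNA, at 4.48 and 23.7 FPKM. *malsu1*, which keeps the subunits from joining too early, was the lower one, at 122 and 40.4 FPKM.

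The translation factor list held 16 genes, among them other genes of mitochondrial expression (*lrpprc*, *slirp*, *mtres1* and *mtfmt*). It comprised 10 higher (62.5%) and 2 lower genes (12.5%), and 10 and 3 with TMM scaling (62.5% and 18.8%). The list as a whole had a median of 1.55, or 1.06 relative to all genes. *gfm2*, which splits ribosomes for recycling, was at 0.878 and 12.4 FPKM, and *mtif2*, the initiation factor, at 1.25 and 10.8 FPKM. *mrrf*, which acts with *gfm2* in recycling and was chosen after its values were seen, was at 6.68 and 33.3 FPKM. *slirp*, a partner that stabilizes mitochondrial mRNAs, was at 32.5 and 12.9 FPKM.

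The list of 18 genes that charge mitochondrial tRNAs, synthetases and amidotransferase subunits, had 8 higher and 2 lower members (median 0.77). These shares of 44.4% and 11.1% stood beside 33.3% and 11.6% of all genes. With TMM scaling they were 33.3% and 16.7%, beside 21.3% and 19.3%, and the median was 0.37. *hars2*, for histidine, was at 26.1 and 97.7 FPKM, and *qrsl1*, a subunit of the amidotransferase that makes glutaminyl-tRNA, at 3.17 and 12.7 FPKM. *ears2*, for glutamate, was at 56.3 and 9.08 FPKM, and *rars2*, for arginine, at 13.3 and 5.05 FPKM.

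**Figure D5:**
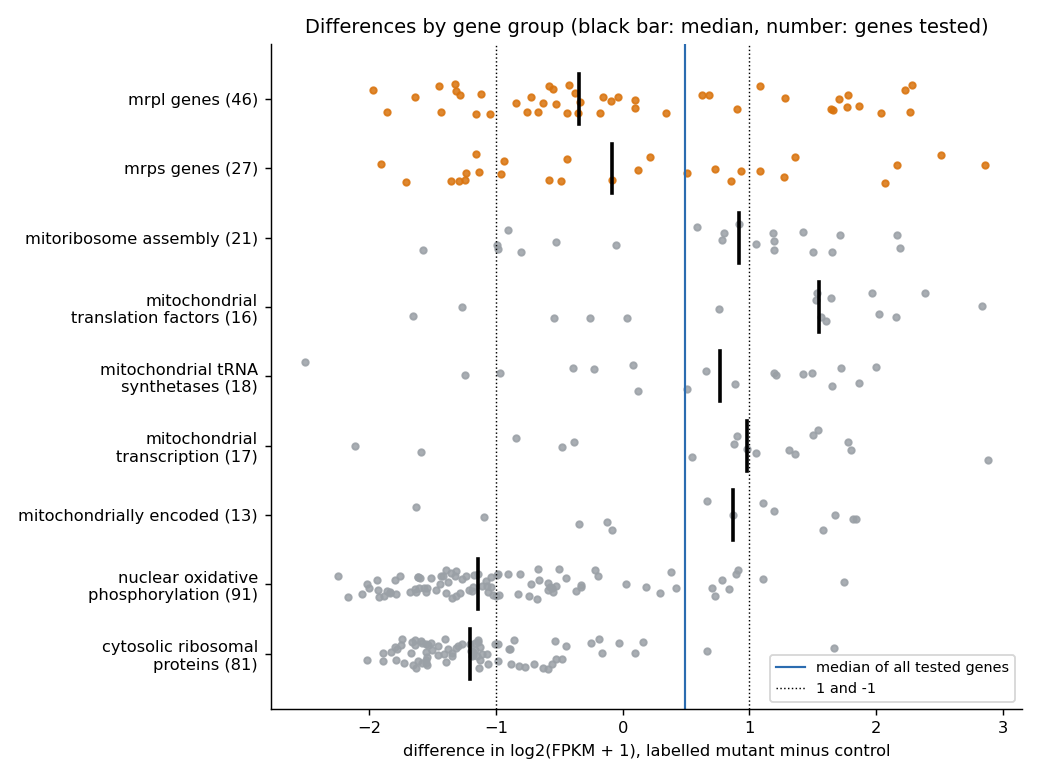
Difference in log2(FPKM + 1), library labelled mutant minus control (horizontal axis), for each compared gene of 9 groups, with the number of genes in parentheses, the group median as a black bar the all-gene median of 0.49 as a blue line and dotted lines at 1 and -1. The mitoribosomal genes (orange) reach from -1.97 to 2.86, whereas the cytosolic ribosomal protein genes and the nuclear oxidative phosphorylation genes crowd around medians of -1.20 and -1.14.

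The groups closest in kind differed in how uniform they were. Among 81 cytosolic ribosomal protein genes, taken by a symbol pattern, there were 1 higher (1.23%) and 57 lower ones (70.4%). Among all genes compared these shares were 33.3% and 11.6%. The higher one was *rpl7l1* (64.3 and 206 FPKM), which is in the list by its symbol alone. The differences of the 81 genes had a median of -1.20 and a standard deviation of 0.62. Among 91 nuclear oxidative phosphorylation genes there were 2 higher (2.2%) and 53 lower ones (58.2%), with a median of -1.14 and a standard deviation of 0.84. For the 73 mitoribosomal genes the standard deviation was 1.28, next to 1.19 over all genes compared. With TMM scaling 1 of 82 cytosolic ribosomal protein genes was higher and 71 were lower (median -1.71). Of 92 oxidative phosphorylation genes 1 was then higher and 72 were lower (median -1.59). The shares of all genes were then 21.3% and 19.3%. The 13 protein-coding genes of the mitochondrial genome comprised 6 higher (46.2%) and 2 lower ones (15.4%), with a median of 0.87. With TMM scaling there were 4 higher (30.8%) and 2 lower ones, with a median of 0.35. The 6 include *mt-atp8*, for which 1 and 6 reads were recovered (interval of the ratio 0.764 to 289.5). All groups were read from the same pair of libraries, and the differences between groups were not tested.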

How the data were processed

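Hearts were pooled per group, and the submitters' processing notes name TopHat2 2.0.9 and Bowtie2 2.0.6. The genome build, the annotation and the counting rule are not given in the sources used here, so no coordinates are printed. The authors deposited FPKM values, 1 per gene and library, with no further scaling between libraries. That unit was read from the values. Unmatched sample columns numbered 0.

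Genes were paired with symbols by their Ensembl identifier. Of 75 annotated mitoribosomal symbols, 2 had no row in the table and were not analysed here. Differences of log2(FPKM + 1) were taken over genes that reached 1 FPKM in either or both libraries. Ratios of FPKM between libraries are ratios of whole reads times a constant, from which the totals and the smallest whole reads and lengths were derived (91.2% and 90.4% of the totals, with 102 genes not resolved). True reads can be a multiple of these. Procedures were tested on simulated data. The planned search for promoter motifs was not run, as no promoter sequences were at hand.

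Alternatives were TMM (30% and 5% trims), median-of-ratios and upper-quartile scaling, other filters, a pseudocount of 0.1, removal of lowess trends (span 0.3), a threshold of 2 and leaving out misnamed genes. Named were the 8 largest differences in each direction, the 5 highest and 5 lowest genes in control, genes at known sites of the ribosome and, per list, the 2 largest differences in each direction with at least 10 FPKM. Other genes were named after their values were seen. A result for 1 gene is left out of the text. The genes and lists were chosen with earlier results of these data known. A kinase gene that matched the pattern for cytosolic ribosomal proteins was left out of that list. Software was Python 3.11.15 with matplotlib 3.10.9, statsmodels 0.14.6, scipy 1.17.1, pandas 2.3.3 and numpy 2.4.6.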

Additional observations from a re-analysis of the deposited data

How the results depend on the processing

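With 1 library per group no replicate could be left out, and no paired analysis was possible because each group had a single library. The 19 higher genes became 14 under scaling by TMM, by median of ratios and by the upper quartile, and the 19 lower genes became 30, 30 and 35. Counts over all genes moved too. Their 5924 higher genes became 3788, 3749 and 3316, and their 2060 lower genes became 3437, 3462 and 3900 (of 17800, 17801 and 17827 compared). The median difference of the mitoribosomal genes (-0.33) became -0.84, -0.85 and -0.97 under these scalings, that of the *mrpl* genes (-0.34) -0.85, -0.85 and -0.97, and that of the *mrps* genes (-0.09) -0.59, -0.60 and -0.72. Relative to all genes the median (-0.83) stayed between -0.78 and -0.95, except at -0.53 with no filter on low values, which adds low genes, and at -0.64 after removal of the length trend. That removal also left 11 lower genes and medians of -0.12 for all mitoribosomal and for the *mrpl* genes. Leaving out *mrps18a* and *mrps30* (*mrps36* was not among the genes) moved the *mrps* median to -0.44. A threshold of 2 on the values as deposited left 8 higher and 0 lower genes, with no count over all genes at that threshold beside it. With TMM scaling only *mrps31* and *mrps18b* were higher at that threshold. *mrpl16*, *mrps10*, *mrpl2*, *mrps24* and *mrpl18* were then lower. Over 10 settings, no called gene changed direction, and 14 higher and 10 lower genes stayed past 1 throughout. That stability is given without the same count over all genes. The scalings by a constant lower every difference by less than 1. Under them lower genes could not lose their call, and no higher gene could turn into a lower one. Depth would limit chiefly *mrpl1* and *mrpl52*, with 30 and 34 recovered control reads, if these are their true reads. They may be a fraction of the true reads, as may the 15 of *mrpl10*.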

Other observations

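Genes of mitochondrial transcription and its nuclear regulators were examined beside the mitoribosomal genes, since the same organelle depends on them. The list of 17 genes compared had 8 higher and 2 lower members, with a median difference of 0.98. These are 47.1% and 11.8%, beside 33.3% and 11.6% of all genes. *tfam*, which packages mitochondrial DNA and starts its transcription, was at 4.46 and 39.4 FPKM, a difference (2.89) close to that of *mrps31* (2.86). *tfb2m*, the partner that opens the promoter, was at 9.59 and 35.3 FPKM. The lower genes were *gabpb1*, a subunit of a nuclear regulator of mitochondrial genes, at 14.3 and 2.54 FPKM, and *yy1* (ENSDARG00000027978), at 108 and 35.1 FPKM. The symbol *yy1* also belongs to ENSDARG00000042796, which was higher, at 19.4 and 56.8 FPKM. With TMM scaling 5 of the 17 were higher and 3 lower (29.4% and 17.6%, beside 21.3% and 19.3% of all genes), and the median was 0.48. Whether these levels bear on those of the mitoribosomal genes was not tested.

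Of the 13 protein-coding genes of the mitochondrial genome, *mt-nd4* was at 273 and 964 FPKM and *mt-nd4l* at 5.36 and 21.8 FPKM, whereas *mt-co2* was at 11162 and 5234 FPKM and *mt-nd3* at 107 and 34.0 FPKM. *mt-nd4l* and *mt-nd4* share an mRNA and are both among the 6 higher genes, so these do not stand for 6 separate mRNAs. The differences over all 13 genes spread from -1.63 to 1.84.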
